A study of Mus musculus with 4 samples.

Results

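The replication-dependent histone genes are the genes named Hist1h, Hist2h, Hist3h or Hist4h followed by their histone class. By that name rule, 67 of the 22367 protein-coding genes of the GENCODE vM1 annotation (assembly mm9) were members: 6 linker histone H1 genes, 19 H2A genes, 18 H2B genes, 11 H3 genes and 13 H4 genes. Chromosome 13 carried 55 of them, chromosome 3 carried 9, chromosome 11 carried 2 and chromosome 6 carried 1. H3K4 chromatin immunoprecipitation sequencing (ChIP-seq) was compared between B cells labelled PA1-KO and B cells labelled PA1-WT, with 1 library each. Both groups were splenic B cells from mice aged 6 to 14 weeks, depleted with CD43 beads and stimulated over 2 days with LPS at 25 µg/ml plus either α-IgD-dextran at 2.5 ng/ml or IL-4 at 5 ng/ml. The labels do not say which second stimulus these 2 libraries had, which methylation state of H3K4 the antibody read, how the PA1 allele was deleted or how many mice were pooled. The series title places PA1 with PTIP, in a subcomplex linked to the MLL3/MLL4 H3K4 methyltransferase complex. The other 2 of the 4 samples in the series were not analysed here.

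Replication-dependent histone genes supply the histones that package new DNA, and most are expressed in S phase of the cell cycle. They are short, lack introns, and their mRNAs end in a conserved stem-loop, bound by the protein Slbp, in place of a poly(A) tail. Many lie in clusters, in which H2A and H2B genes often stand head to head and share the stretch between their start sites, and paralogues encode nearly or fully identical proteins. H3K4 methylation marks the nucleosomes that flank active start sites.

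The stem-loop served as a check of the name rule that uses no read. The motif searched is a 6-base stem written GGNNCT, a 4-base loop of 3 T and any base, and the closing stem, written as AG, any 2 bases and CC. On the gene's own strand, from 300 bases before to 200 bases beyond the annotated gene end, it was found in 47 of the 67 members (70.1%) and in 5 of the 22300 other genes (0.0224%). Searched over the whole gene, 62 of the 67 members held it, all but Hist2h2be, Hist1h2an, Hist1h3g, Hist1h4a and Hist1h2al. No share of other genes is given for this wider search, and the 0.0224% does not apply to it. The 47 loops took 6 forms, and the 11 loops of H4 genes used 3 forms that no other class had. One example per class is shown in assembly mm9, as DNA in the direction of the gene, with the stem and loop in capitals:
Hist1h1b (chr13:21871702-21871725, minus strand): caaaGGCTCTTTTCAGAGCCacct
Hist1h2ag (chr13:22134348-22134371, minus strand): caaaGGCTCTTTTCAGAGCCacct
Hist1h2bb (chr13:23839068-23839091, plus strand): caaaGGCTCTTTTAAGAGCCaccc
Hist1h3h (chr13:21809960-21809983, plus strand): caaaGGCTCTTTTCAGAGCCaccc
Hist1h4h (chr13:23623323-23623346, plus strand): caaaGGCCCTTTTCAGGGCCgccc

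The 12 head-to-head pairs were each made of 1 H2A and 1 H2B gene, with start sites 168 to 306 bp apart (median 228.5 bp). The stretches between the start sites of 3 pairs are shown because the first had among the fewest reads between the start sites although every 25-base word there is unique, the second had the highest ratio of the pairs and the third could hold no uniquely mapped read. Capitals mark matches to 3 motifs on either strand. The first is the TATA box, searched as TATAAA. The second is the box bound by the factor NF-Y, searched as CCAAT. The third is the octamer bound by the POU factors Oct-1 and Oct-2, searched as ATTTGCAT, and none of the 3 contains another:
Hist1h2ae to Hist1h2bg (chr13:23663089-23663265, plus strand): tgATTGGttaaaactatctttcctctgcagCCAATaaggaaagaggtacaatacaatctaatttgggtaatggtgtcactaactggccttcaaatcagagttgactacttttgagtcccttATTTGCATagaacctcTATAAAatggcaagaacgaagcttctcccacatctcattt
Hist1h2bf to Hist1h2ad (chr13:23666065-23666250, plus strand): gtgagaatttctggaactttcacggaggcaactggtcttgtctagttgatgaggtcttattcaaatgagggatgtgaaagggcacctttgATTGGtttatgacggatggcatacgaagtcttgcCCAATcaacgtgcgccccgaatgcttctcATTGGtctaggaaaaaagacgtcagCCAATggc
Hist1h2bq to Hist1h2ao (chr13:21902068-21902236, plus strand): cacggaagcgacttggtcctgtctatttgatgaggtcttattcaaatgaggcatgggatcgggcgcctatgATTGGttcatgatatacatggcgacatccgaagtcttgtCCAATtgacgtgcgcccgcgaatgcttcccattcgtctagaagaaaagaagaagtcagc
All 12 stretches held CCAAT, up to 5 times, while 5 held the octamer and 5 held TATAAA. The stretch between Hist1h2bq and Hist1h2ao is the exact reverse complement of that between Hist1h2ap and Hist1h2br, over all 169 bases.

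Hist1h3d, Hist1h4h and Hist3h2a, which have no head-to-head partner, are shown by the 250 bases before the start site, with the same letters in capitals. Hist1h3d was among the genes with the highest ratio of PA1-KO to PA1-WT, Hist1h4h was higher within 300 bp, and Hist3h2a was the single gene with a ratio under 1:
Hist1h3d (chr13:23667382-23667631, plus strand): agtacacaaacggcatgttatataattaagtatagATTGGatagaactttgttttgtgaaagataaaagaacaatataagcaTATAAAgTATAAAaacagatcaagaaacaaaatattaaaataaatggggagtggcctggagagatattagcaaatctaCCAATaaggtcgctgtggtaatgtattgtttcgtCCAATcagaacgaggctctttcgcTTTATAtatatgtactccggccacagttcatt
Hist1h4h (chr13:23622669-23622918, plus strand): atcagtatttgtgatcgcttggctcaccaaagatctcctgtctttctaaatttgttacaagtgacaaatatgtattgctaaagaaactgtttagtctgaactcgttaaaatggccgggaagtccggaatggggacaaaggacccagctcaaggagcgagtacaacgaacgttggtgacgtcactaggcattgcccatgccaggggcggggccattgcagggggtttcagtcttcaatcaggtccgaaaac
Hist3h2a (chr11:58767937-58768186, plus strand): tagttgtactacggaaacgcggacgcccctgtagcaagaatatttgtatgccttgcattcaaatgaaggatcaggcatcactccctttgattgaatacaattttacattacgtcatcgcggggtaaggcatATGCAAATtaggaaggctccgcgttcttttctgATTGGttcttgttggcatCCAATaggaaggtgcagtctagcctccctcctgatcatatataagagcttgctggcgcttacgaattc
Over a window from 250 bases before to 50 bases after the start site, CCAAT was present in 57 of 67 members (85.1%), against 36.0% of all 22367 promoters. It was in all 6 H1, 19 H2A and 18 H2B promoters and in 10 of 11 H3 promoters, but in 4 of 13 H4 promoters. TATAAA was present in 38 members (56.7%), against 12.2% of all promoters. The octamer was present in 15 members (22.4%), of which 8 were H2B and 7 were H2A genes, against 1.70% of all promoters, and it was in no H1, H3 or H4 promoter of this window. Because paired genes share these bases, the counts are not of independent promoters. The H3 count includes Hist2h3c1, whose chosen start site lies beside that of the H2A gene Hist2h2aa1, so nearly the same bases count for both classes. Tested members with the octamer (n = 13) had a median log2 ratio of PA1-KO to PA1-WT of 0.27, and those without it (n = 44) one of 0.35. Tested members with TATAAA (n = 34) had a median log2 ratio of 0.36, and those without it (n = 23) one of 0.30.

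The PA1-KO library held 5260401 mapped reads and the PA1-WT library 5539549, all 25 bases long and none repeated at a position and strand. Reads were counted within 1 kb of 1 transcription start site (TSS) per gene, scaled between libraries so that the typical promoter had a ratio of 1, and given as normalized RPM, which are reads per 1000000 of the scaled library. Intervals are 95% exact binomial intervals. They cover counting error only, and with 1 library per genotype there was no test between genotypes and no replicate check. The words higher and lower stand for a change of 1.5-fold or more between PA1-KO and PA1-WT with an interval that leaves out 1, among promoters with 50 or more reads in both libraries together (tested promoters). The gene for PA1 itself (2900092E17Rik) had 114 reads in PA1-KO and 261 in PA1-WT (ratio 0.498, interval 0.396 to 0.623) and was counted as lower. Where the deletion lies is not given, so this checks the label only in part. Paxip1, which encodes PTIP, had 267 reads in PA1-KO and 438 in PA1-WT (ratio 0.696). The 6 B cell markers had 761 to 1111 reads each, whereas 5 of the 6 T cell markers had 1 to 4 reads in both libraries together, with the T cell list summing to 24 in PA1-KO and 48 in PA1-WT. The 6 myeloid markers summed to 157 in PA1-KO and 203 in PA1-WT, with Csf1r at 0 in both. The erythroid list summed to 139 in PA1-KO and 105 in PA1-WT, of which Epb4.2 had 23 in PA1-KO and 2 in PA1-WT and Slc4a1 had 12 in PA1-KO and 2 in PA1-WT. The part of other cells in the results below was not tested.

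On the promoter scale the histone genes carried more H3K4 reads in PA1-KO than in PA1-WT, by a small margin that nearly all of them shared. Of the 67 members, 57 had 50 or more reads. Among these, 6 were counted as higher and 0 as lower, against 0.665% higher and 4.9% lower of all 12186 tested promoters. The 6 became 3 when the libraries were scaled to total reads, against 0.328% of all tested promoters under that scaling. A ratio above 1 was seen in 56 of 57, against 50.2% of tested promoters. The interval lay above 1 in 25 of 57, against 10.1%, and below 1 in 0 of 57, against 11.4%. Of 2574 other tested promoters between the tested members' 10th and 90th percentiles of both reads and GC content, 1713 had a ratio above 1. Among these 2574 the interval lay above 1 in 298 and below 1 in 82, and 8 were counted as higher and 19 as lower. Beside them the contrast was smaller for ratios above 1, intervals below 1 and genes counted as lower, but not for genes counted as higher. The median log2 ratio was 0.34 (quartiles 0.21 to 0.53) over the 57 and 0.00 over all tested promoters. Counting each read once, the windows of all 67 members held 6939 reads in PA1-KO and 6394 in PA1-WT, a ratio of 1.24 (interval 1.20 to 1.28). In bulk chromatin, more mark per cell and more cells carrying the mark cannot be told apart.

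The size of this difference rested on how the libraries were scaled. Reads outside promoters and enriched islands numbered 1344752 in PA1-KO and 1246405 in PA1-WT, a ratio of 1.23 on the promoter scale. With the libraries scaled to those reads, the log2 ratio of every promoter moves down by 0.30. The members' summed ratio was then 1.01, their median log2 ratio 0.04 against −0.30 for all tested promoters, 33 of 57 had a ratio above 1, and 0 were counted as higher or lower. Of all tested promoters, 0.140% were then higher and 16.1% lower. The density of these outside reads was 0.111 RPM per kb in PA1-KO and 0.0902 in PA1-WT, while the members' windows had 14.3 RPM per kb in PA1-KO and 11.5 in PA1-WT.

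**Figure D1:**
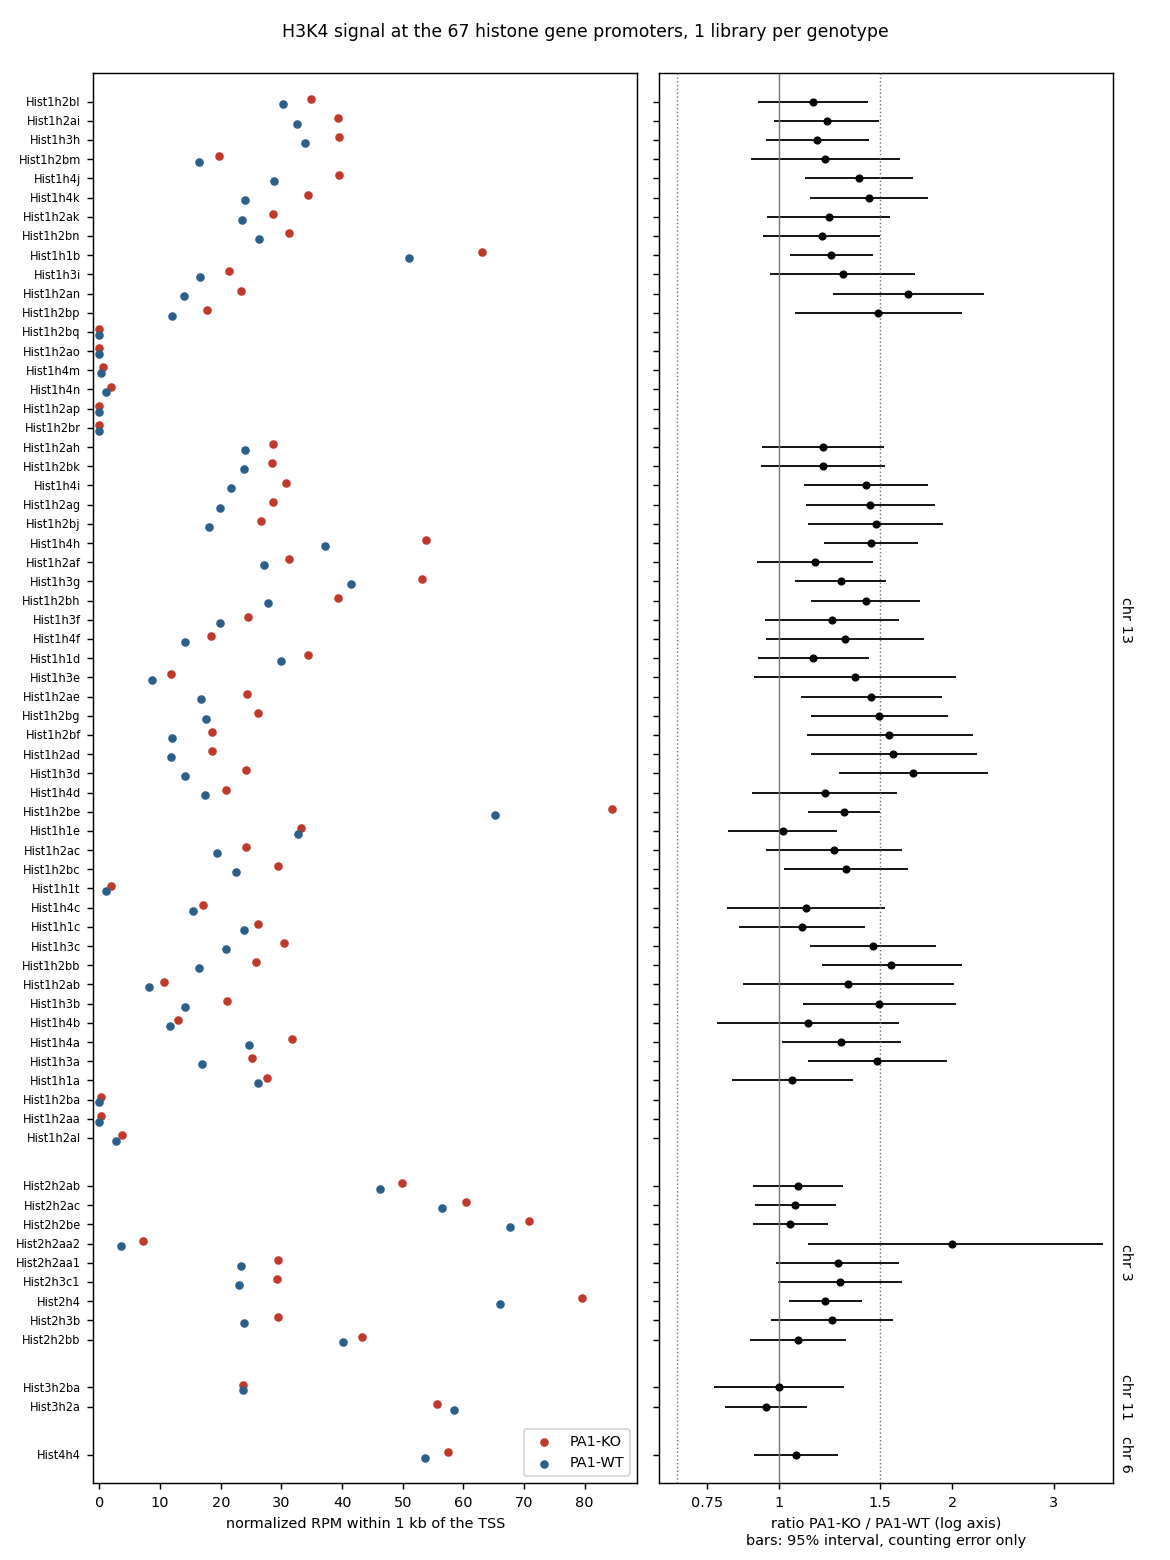
H3K4 signal of each of the 67 histone genes in map order, in normalized RPM within 1 kb of the TSS (left) and as the ratio of PA1-KO to PA1-WT with its 95% counting interval on a log axis (right, the 57 genes with 50 or more reads; dotted lines at 1.5-fold). On the promoter scale 56 of the 57 ratios lie above 1 (33 when scaled to reads outside promoters and islands), with Hist3h2a the exception at 0.951, and Hist2h2aa2 is highest at 2.00 with the widest interval.

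Most of the 6 genes counted as higher lay on chromosome 13. Hist1h3d, an H3 gene, had 117 reads in PA1-KO and 78 in PA1-WT (ratio 1.71, interval 1.27 to 2.31). Hist1h2an, an H2A gene, had 113 reads in PA1-KO and 77 in PA1-WT (ratio 1.67, interval 1.24 to 2.27). Its head-to-head H2B partner Hist1h2bp, whose window largely overlaps, had 86 reads in PA1-KO and 66 in PA1-WT and a ratio of 1.49. Hist1h2bf and Hist1h2ad, an H2B and an H2A gene whose start sites are 185 bp apart, each had 90 reads in PA1-KO, against 66 and 65 in PA1-WT (ratios 1.56 and 1.58). These 2 genes share most of their reads and are not separate observations. The window of Hist1h3d overlaps that of Hist1h2ad. Merged, the 3 genes form 1 block with 185 reads in PA1-KO and 131 in PA1-WT (ratio 1.61, interval 1.28 to 2.03). Hist1h2bb, an H2B gene, had 125 reads in PA1-KO and 91 in PA1-WT (ratio 1.57, interval 1.19 to 2.08). The sixth gene was Hist2h2aa2, an H2A gene of chromosome 3, with only 35 reads in PA1-KO and 20 in PA1-WT (ratio 2.00, interval 1.12 to 3.65). Only 40.4% of the 25-base words in its window are unique.

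The 4 lowest ratios came from genes other than the H2A, H2B, H3 and H4 genes of chromosome 13. Hist3h2a had 270 reads in PA1-KO and 324 in PA1-WT (ratio 0.951, interval 0.806 to 1.12). Hist3h2ba, its H2B neighbour on chromosome 11, had 115 reads in PA1-KO and 131 in PA1-WT (ratio 1.002). The linker histone gene Hist1h1e had 161 reads in PA1-KO and 181 in PA1-WT (ratio 1.02), and the chromosome 3 H2B gene Hist2h2be had 344 in PA1-KO and 375 in PA1-WT (ratio 1.05). All 4 intervals included 1.

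By reads of both libraries together, the most heavily marked member was Hist1h2be, an H2B gene of chromosome 13, with 410 reads in PA1-KO and 361 in PA1-WT (84.5 RPM in PA1-KO and 65.2 RPM in PA1-WT, ratio 1.30, interval 1.12 to 1.497). Hist2h4, an H4 gene of chromosome 3, followed with 386 reads in PA1-KO and 366 in PA1-WT (79.5 RPM in PA1-KO and 66.1 RPM in PA1-WT, ratio 1.20, interval 1.04 to 1.39). In PA1-WT alone the highest was Hist2h2be, with 70.9 RPM in PA1-KO and 67.7 RPM in PA1-WT. Hist1h2be and Hist2h4 have windows in which over 96% of 25-base words are unique (97.2% and 96.2%). Hist1h2be is annotated over 37383 bp with 2 start sites, and the one counted is its 5′ end. That window lies far from the other end of the annotated gene and overlaps the window of the H1 gene Hist1h1e. The highest of the other classes, again by reads of both libraries together, were Hist2h2ac for H2A (293 reads in PA1-KO and 313 in PA1-WT), Hist1h1b for H1 (306 in PA1-KO and 283 in PA1-WT) and Hist1h3g for H3 (258 in PA1-KO and 230 in PA1-WT). Among H2A genes, Hist3h2a was above Hist2h2ac in PA1-WT, with 324 reads. Hist1h3e had the fewest reads of the H3 genes, 57 in PA1-KO and 48 in PA1-WT. The median level of the 57 tested members was 28.6 RPM in PA1-KO and 23.5 RPM in PA1-WT, below the 44.3 RPM in PA1-KO and 44.0 RPM in PA1-WT of all tested promoters. Per 1000 unique positions, without scaling, the medians were nearer, 48.9 reads in PA1-KO and 44.1 in PA1-WT for members and 56.9 in PA1-KO and 64.5 in PA1-WT for all tested promoters.

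On the promoter scale and within 1 kb, the ratio was higher on chromosome 13 than in the smaller clusters, and under scaling to reads outside promoters and islands it was 1.06 on chromosome 13, 0.935 on chromosome 3, 0.784 on chromosome 11 and 0.871 on chromosome 6. The chromosome 13 windows held 4942 reads in PA1-KO and 4320 in PA1-WT, a ratio of 1.31 (interval 1.25 to 1.36), and all 45 tested genes there had a ratio above 1. The chromosome 3 windows held 1333 reads in PA1-KO and 1322 in PA1-WT (ratio 1.15, interval 1.07 to 1.24). The chromosome 11 windows held 385 reads in PA1-KO and 455 in PA1-WT (ratio 0.966, interval 0.841 to 1.11), and Hist4h4, an H4 gene and the sole member on chromosome 6, had 279 in PA1-KO and 297 in PA1-WT (ratio 1.07, interval 0.907 to 1.27). Chromosome 13 over chromosome 3 gave a ratio of ratios of 1.13 (interval 1.04 to 1.24), over chromosome 11 1.35 (1.17 to 1.56) and over chromosome 6 1.22 (1.03 to 1.45). Within 300 bp of the start sites these became 0.999 (0.842 to 1.19), 1.23 (0.937 to 1.63) and 1.30 (0.944 to 1.79), all including 1. The median log2 ratio of the 449 other tested promoters of chromosome 13 was 0.01, against 0.37 for the 45 tested members there.

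On chromosome 13 the genes fell into stretches parted by gaps over 200 kb. The stretch at chr13:21806632-22136545, with 23 genes, held 1872 reads in PA1-KO and 1634 in PA1-WT (ratio 1.31). The stretch at chr13:23621919-24027720, with 31 genes, held 3052 in PA1-KO and 2671 in PA1-WT (ratio 1.30). Their ratio of ratios was 1.003 (interval 0.921 to 1.09), so no difference between the stretches was detectable. The last gene, Hist1h2al, lies alone and had 18 reads in PA1-KO and 15 in PA1-WT. Since windows of neighbours overlap (39 of the 57 tested members shared bases with another member's window), the windows were also merged into 40 separate blocks. Of the 35 blocks with 50 or more reads, 34 had a ratio above 1, and 19 had an interval above 1 and 0 one below. All 27 such blocks of chromosome 13 had a ratio above 1, from 1.10 to 1.68.

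On chromosome 3, the 9 members had ratios from 1.05 to 2.00. Hist2h2ab had 242 reads in PA1-KO and 256 in PA1-WT (ratio 1.08), Hist2h2ac had a ratio of 1.07, and Hist2h2bb had 210 reads in PA1-KO and 222 in PA1-WT (ratio 1.08). The H3 gene Hist2h3b had 143 reads in PA1-KO and 132 in PA1-WT (ratio 1.24). Hist2h2aa1 had 143 reads in PA1-KO and 129 in PA1-WT (ratio 1.27) and Hist2h3c1, whose chosen start site is 16 bp from it and which therefore counts nearly the same reads, had 142 in PA1-KO and 127 in PA1-WT (ratio 1.28). Of the 9 intervals, those of Hist2h4 and Hist2h2aa2 lay above 1 and the others included 1.

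**Figure D2:**
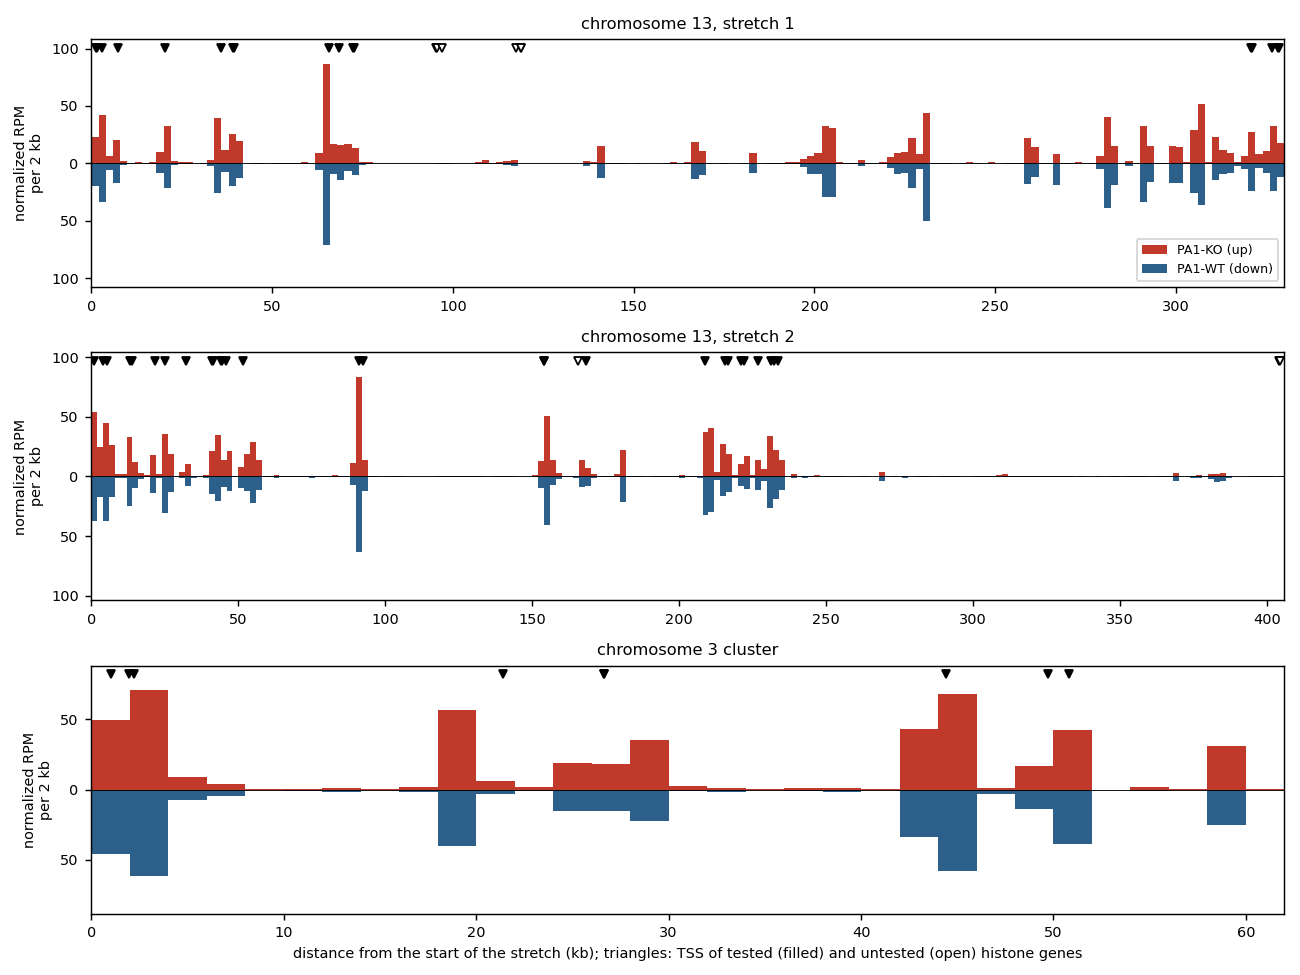
H3K4 reads in 2 kb bins along both stretches of chromosome 13 and along the chromosome 3 cluster, in normalized RPM, with PA1-KO drawn upward and PA1-WT downward and triangles at the start sites of tested (filled) and untested (open) histone genes. Signal stands at most tested genes in both libraries, with the exception of Hist2h2aa2, which lies beside a peak of chromosome 3, and further peaks of the first chromosome 13 stretch stand at no histone gene. The open triangles of Hist1h2bq, Hist1h2ao, Hist1h2ap and Hist1h2br mark windows with 0 reads.

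On the promoter scale, on which reads outside promoters and islands had a ratio of 1.23 over the genome, reads inside the stretches but outside the members' windows also had ratios above 1. They numbered 3461 in PA1-KO and 3479 in PA1-WT in the first chromosome 13 stretch (ratio 1.14, interval 1.08 to 1.19), 1852 in PA1-KO and 1579 in PA1-WT in the second (ratio 1.34, interval 1.25 to 1.43), and 1034 in PA1-KO and 906 in PA1-WT in the chromosome 3 cluster (ratio 1.30, interval 1.19 to 1.43). The tested promoters of other genes in the chromosome 13 stretches were mixed. Zfp184 had a ratio of 0.940, Prss16 of 0.921 and the iron regulator gene Hfe of 1.05, all with intervals that included 1. Gm17658 (ratio 1.19) starts beside the member Hist1h4d (ratio 1.20) and counts largely the same reads, so it is not a separate observation. Pom121l2 had 40 reads in PA1-KO and 101 in PA1-WT (ratio 0.452, interval 0.305 to 0.658) and was counted as lower.

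By class, the summed ratio within 1 kb on the promoter scale was lowest for H1 and highest for H3 genes. Within 300 bp the scale was set anew for that window. The ratio was then 1.20 for H1, 1.11 for H2A, 1.22 for H2B, 1.12 for H4 and 1.46 for H3. With the 1 kb scale kept, the same 300 bp reads gave 1.07 for H1, 0.985 for H2A and 1.09 for H2B. They gave 0.998 for H4 and 1.30 for H3. H2A and not H1 was lowest within 300 bp on either scale. Within 1 kb the ratio was under 1 for H1 (0.918) and H2A (0.983) when scaled to reads outside promoters and islands. H1 genes, which encode the linker histones, had 904 reads in PA1-KO and 913 in PA1-WT (ratio 1.13, interval 1.03 to 1.24). H2A genes had 2132 in PA1-KO and 2010 in PA1-WT (ratio 1.21, interval 1.14 to 1.29), H2B genes 2526 in PA1-KO and 2325 in PA1-WT (ratio 1.24, interval 1.17 to 1.31) and H4 genes 1936 in PA1-KO and 1748 in PA1-WT (ratio 1.26, interval 1.18 to 1.35). H3 genes had 1504 in PA1-KO and 1293 in PA1-WT (ratio 1.33, interval 1.23 to 1.43). All 5 intervals overlap, those of H1 and H3 only at their ends. H2A and H2B sums share reads at the head-to-head pairs. The H2A and H3 sums share nearly all reads of Hist2h2aa1 and Hist2h3c1, whose chosen start sites lie side by side.

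Within 300 bp of the start site, with the scale set anew for that window, 24 members had 50 or more reads, 3 were counted as higher and 0 as lower, against 2.27% and 2.83% of 10330 tested promoters. Hist1h3f had 72 reads in PA1-KO and 48 in PA1-WT (ratio 1.93, interval 1.32 to 2.84), Hist1h4h had 65 in PA1-KO and 55 in PA1-WT (ratio 1.52, interval 1.04 to 2.21) and Hist1h2be 154 in PA1-KO and 130 in PA1-WT (ratio 1.52, interval 1.20 to 1.94). None of the 3 was counted as higher within 1 kb, and none of the 6 genes higher within 1 kb was so within 300 bp, where 5 of them had under 50 reads. Of the 24, 20 had a ratio above 1. The start site counted for Hist1h2be is the 5′ end of an annotated span of 37383 bp.

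On the promoter scale, the excess in PA1-KO lay in the flanks of the genes more than at the start sites. Reads within 300 bp numbered 1670 in PA1-KO and 1772 in PA1-WT (ratio 1.08, interval 1.01 to 1.15). Reads from 300 bp to 1 kb numbered 5269 in PA1-KO and 4622 in PA1-WT (ratio 1.30, interval 1.25 to 1.35). The ratio of these ratios was 0.827 (interval 0.764 to 0.894). Summed over all tested promoters the corresponding ratios were 0.908 near the start site and 1.07 in the flanks, and their quotient was 0.851, so a lower ratio near the start site was not particular to histone genes. By class, the quotient was lowest for H4 genes, 0.735 (interval 0.629 to 0.860), and highest for H3 genes, 0.972 (interval 0.801 to 1.18).

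In 100 bp bins the ratio over the 57 tested members varied along the gene. Downstream of the start site it was 0.94 in the bin from 100 to 200 bp, 0.93 from 200 to 300 bp and 0.99 from 300 to 400 bp, and it was 1.48, 1.46 and 1.51 in the bins from 700 to 1000 bp. Upstream the order was different, since the bin from 200 to 100 bp before the start site had the highest ratio within 1 kb, at 1.55 with 193 reads in PA1-KO and 142 in PA1-WT. At the other tested promoters it was 0.857 in the bin from 0 to 100 bp and 1.15 from 900 to 1000 bp. Within 1 kb, fewest reads lay in the 100 bp before the start site, with 130 in PA1-KO and 133 in PA1-WT, although 88.9% of 25-base words there are unique. Most reads lay from 500 to 600 bp downstream, with 743 in PA1-KO and 702 in PA1-WT. A second dip from 100 to 400 bp downstream, inside the short coding regions, coincided with low mappability: 34.1% of words are unique from 100 to 200 bp and 24.7% from 200 to 300 bp. Per 100 unique positions, without scaling, the maximum moved to the bin from 100 to 200 bp, at 9.27 reads in PA1-KO and 11.2 in PA1-WT.

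**Figure D3:**
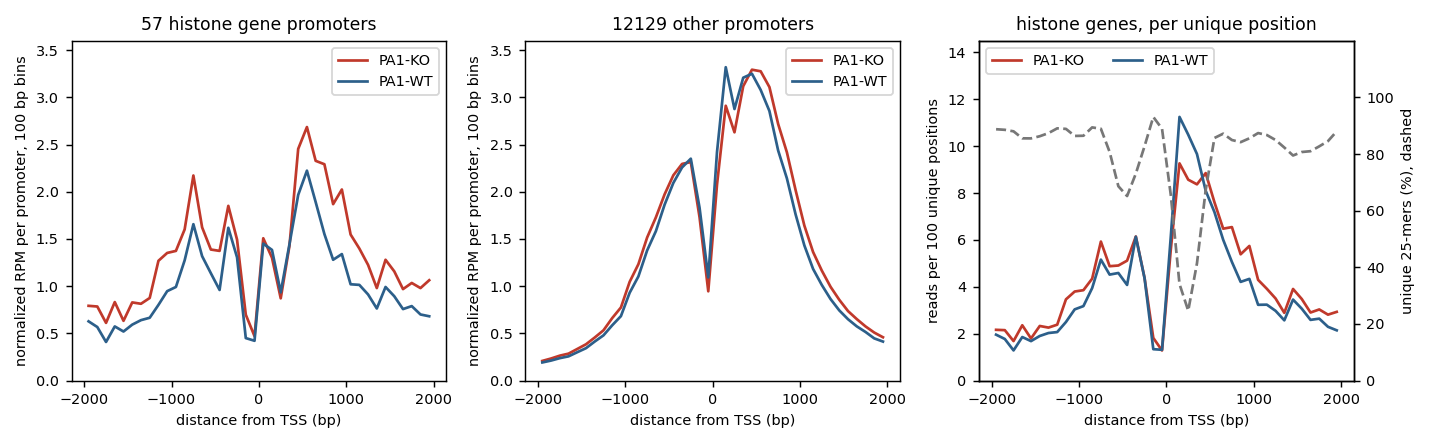
Mean H3K4 signal by distance from the TSS in 100 bp bins, in normalized RPM, for the 57 tested histone genes (left) and the 12129 other tested promoters (middle), and unscaled reads per 100 unique positions for the histone genes with the share of unique 25-base words as a dashed line (right). On this scale PA1-KO lies above PA1-WT beyond 400 bp from the histone start sites, and in the right panel PA1-KO reaches 9.27 and PA1-WT 11.2 just downstream of the start site.

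Of the 12 head-to-head pairs, 9 had 50 or more reads. Over these, only 25 reads in PA1-KO and 23 in PA1-WT lay between the start sites, while 1591 in PA1-KO and 1405 in PA1-WT lay between or within 1 kb outside them. This is 12.3 reads per kb in PA1-KO and 11.3 in PA1-WT between the start sites, against 87.0 in PA1-KO and 76.8 in PA1-WT outside. The pair Hist1h2ae and Hist1h2bg, whose stretch is printed above and is unique throughout, had 0 reads between the start sites in either library and 140 reads in PA1-KO and 102 in PA1-WT around them (ratio 1.57, interval 1.21 to 2.04). The pair Hist1h2bf and Hist1h2ad had 100 reads in PA1-KO and 67 in PA1-WT, the highest ratio of the pairs at 1.70 (interval 1.24 to 2.36). The lowest was that of Hist2h2ac and Hist2h2be on chromosome 3, with 364 reads in PA1-KO and 401 in PA1-WT (ratio 1.04, interval 0.896 to 1.20).

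The remaining 10 members had under 50 reads, some in windows where few 25-base reads can be placed and some not. Hist1h2bq, Hist1h2ao, Hist1h2ap and Hist1h2br had 0 reads in both libraries, and 0% of the 25-base words in their windows are unique. Hist1h2bq and Hist1h2br differ at 0 of 300 promoter bases, and so do Hist1h2ao and Hist1h2ap. The H4 genes Hist1h4m (3 reads in PA1-KO and 1 in PA1-WT) and Hist1h4n (9 in PA1-KO and 6 in PA1-WT) have 3.10% and 2.65% unique words, and their 300-base promoters differ at 1 base. For Hist1h2bq, Hist1h2ao, Hist1h2ap, Hist1h2br, Hist1h4m and Hist1h4n a low count says nothing of the mark. The 300-base promoters of Hist2h2aa1 and Hist2h2aa2 also differ at 1 base, but 40.1% and 40.4% of their words are unique and both were tested. Hist1h2al, an H2A gene with 53.7% unique words, had its 18 reads in PA1-KO all within 300 bp, as were 13 of its 15 in PA1-WT. In contrast, the testis-type H1 gene Hist1h1t had 9 reads in PA1-KO and 6 in PA1-WT in a window that is 99.6% unique. The testis-type pair Hist1h2ba and Hist1h2aa had 1 shared read in PA1-KO and 0 in PA1-WT with 87.7% unique words. With 0 reads, a level of up to 3 reads is allowed by counting error.

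Across all members, the median share of unique 25-base words within 1 kb was 72.6%, and within 300 bp 61.9%, against 98.3% within 1 kb of the other tested promoters. It was 93.1% for H1, 84.5% for H4, 73.8% for H3, 65.4% for H2B and 65.0% for H2A genes. Under 50% stood 9 members, namely the 6 copies named above, Hist2h2aa2, Hist2h2aa1 (40.1%) and Hist2h3c1 (39.3%). Every read without a mismatch in the members' windows, 6453 in PA1-KO and 5980 in PA1-WT, lay at a 25-base word that occurs once in the genome. The share of reads with a mismatch was 7.00% in PA1-KO and 6.47% in PA1-WT in the members' windows, against 8.60% in PA1-KO and 7.80% in PA1-WT at all tested promoters. The 6 members with 90% or more unique words included Hist1h1t and 5 tested genes. The sum over these 6 gave a ratio of 1.19, and 0 of the 5 were counted as higher.

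The tested histone promoters had a median of 269 reads in both libraries and a GC content of 49.1%, against 463 reads and 54.1% for the other tested promoters, so promoters alike in both were set beside them. The ranges used ran from the 10th to the 90th percentile of the tested members, so some members lie outside them. Other tested promoters within the members' range of reads (155.6 to 581.2 in both libraries, n = 6809) had a median log2 ratio of −0.02. Those within the members' range of GC content (44.8% to 53.0%, n = 4615) had a median of 0.10, and those within both ranges (n = 2574) one of 0.08. The members' median of 0.34 lay above the upper quartile of 0.19 in this last set. With the trend of the ratio on GC content removed over all tested promoters, the members' summed ratio was 1.15, their median log2 ratio 0.19, and 50 of 57 ratios lay above 1. Under this setting 2 members were counted as higher, against 0.345% of all tested promoters. With the trend on read level removed instead, the sum was 1.31 and 21 of 57 were counted as higher, against 1.96% of all tested promoters.

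**Figure D4:**
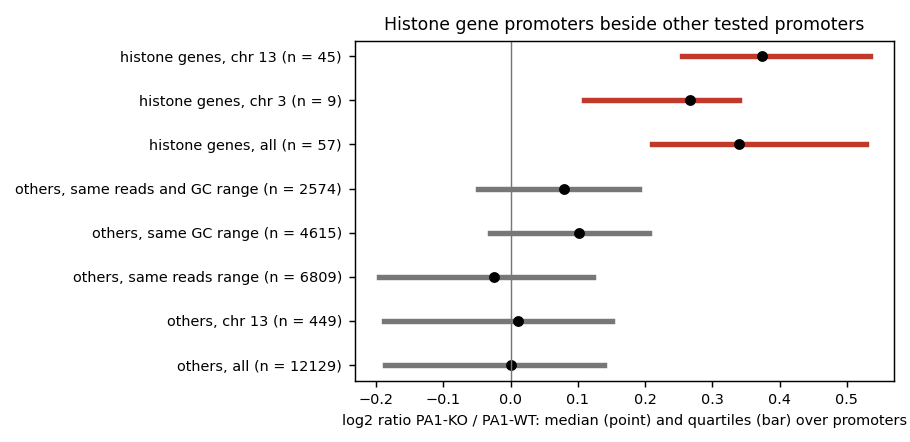
Median (point) and quartiles (bar) of the log2 ratio of PA1-KO to PA1-WT over the tested histone genes (red, by chromosome and together) and over other tested promoters (grey), whole or limited to the members' range of reads, of GC content or of both. These ranges run from the 10th to the 90th percentile of the tested members. The histone gene median of 0.34 lies to the right of the grey sets, whose medians run from −0.02 to 0.10. Another scale moves all sets together.

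Replication-independent histone genes mostly make polyadenylated mRNA through the cell cycle and encode variant histones. Of the 11 listed, 10 were found and 9 tested: 0 were counted as higher, and 1, the linker histone gene H1fx with 21 reads in PA1-KO and 45 in PA1-WT (ratio 0.533), as lower. The shares over all tested promoters were 0.665% higher and 4.9% lower. On the promoter scale the median log2 ratio of the 9 was −0.04, and 3 of 9 had a ratio above 1. H2afv, which encodes an H2A.Z form, had the highest ratio with 271 reads in PA1-KO and 215 in PA1-WT (1.44, interval 1.20 to 1.73). H3f3b, which encodes H3.3, had 109 reads in PA1-KO and 149 in PA1-WT (ratio 0.835, interval 0.646 to 1.08). Whether the 2 sets of genes differ was not tested.

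Among 22 tested genes whose products drive histone gene transcription or process the histone mRNA end, 1 was counted as higher and 1 as lower, and the median log2 ratio was 0.12. Of all tested promoters, 0.665% were counted as higher and 4.9% as lower, which is the background for both lists here. Pou2f1, which encodes Oct-1, had 258 reads in PA1-KO and 189 in PA1-WT (ratio 1.56, interval 1.29 to 1.89). Ccne1, which encodes cyclin E1, had 105 in PA1-KO and 180 in PA1-WT (ratio 0.666, interval 0.518 to 0.852). Slbp had 279 in PA1-KO and 319 in PA1-WT (ratio 0.998), and Npat, the histone gene coactivator, 407 in PA1-KO and 416 in PA1-WT (ratio 1.12), and both intervals included 1. Among 15 tested histone chaperone and import genes, 0 were counted as higher and 1 as lower, the importin gene Ipo4 with 89 reads in PA1-KO and 153 in PA1-WT (ratio 0.664, interval 0.505 to 0.868). The highest of them was Ssrp1, a FACT subunit gene, at 1.18, and their median log2 ratio was −0.02.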

How the data were processed

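Each deposited file holds 1 line per mapped read, and the authors give position, strand and a match descriptor without a count or normalized value (coordinates, unit "other" as deposited). The submitters' processing notes name mm9 and SICER, without roles or versions. The aligner was not given in the sources used here. Libraries were made from native MNase-digested chromatin with 18 PCR cycles, per the labels' protocols, and deposited reads held no repeats, which compresses strong sites. Positions were read as 1-based, because the mismatch letter then equalled the reference base in 100% of cases in NCBIM37, the same assembly as mm9.

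Read 5′ ends were shifted by 75 bp into the fragment, and reads were counted within 1 kb (and 300 bp) of the annotated TSS with the most reads. Scaling used a TMM factor (trimmed mean of M values, 0.923, with 30% of ratios and 5% of levels trimmed) over promoters with 50 or more reads. Ratios have exact Clopper-Pearson 95% intervals, which cover counting error only. Mappability is the share of 25-base words, on both strands, that occur once in the genome. Islands were 200 bp windows of 9 or more reads, joined and kept at 20 or more. Profiles used 100 bp bins in place of the 50 bp planned. The counting code was tested on simulated data. Python 3.11.15, numpy 2.4.6, scipy 1.17.1 and pandas 2.3.3 were used.

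The members and gene lists were chosen with earlier results of these data known. Named members are the highest and lowest by reads and by ratio, those counted as higher, those with few reads or few unique words, and all on chromosomes 3, 11 and 6; from the lists, those counted and the extremes. Hist1h2bp, Hist1h2ae, Hist1h2bg, Hist1h4d, Slbp, Npat, the neighbouring genes and the genes with printed sequences were named in addition, after their values were seen.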

Additional observations from a re-analysis of the deposited data

How the results depend on the processing

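With 1 library per genotype, no result has a replicate check, and reads that map to near-identical copies are missing, so depth and mappability both limit single genes. No paired analysis was possible because each genotype has 1 library and no result comes from a test between samples. The summed ratio of PA1-KO to PA1-WT over all members stayed above 1 under all 12 alternatives, but barely so on scaling to reads outside islands and promoters. On that scale 33 of 57 members had a ratio above 1 and 0 were counted as higher, so almost no excess remained. On scaling to reads outside islands and promoters, the sums for chromosome 3, chromosome 6, H1 and H2A were under 1. So was that for chromosome 11, which was already under 1 on the promoter scale.

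Scaled to total reads, the ratio was 1.14 for all members, 1.20 for chromosome 13, 1.06 for chromosome 3, 1.12 for H2A, 1.14 for H2B, 1.22 for H3 and 1.17 for H4, with 3 genes higher and 48 of 57 ratios above 1. Scaled to reads outside islands and promoters, it was 1.01 for all members, 1.06 for chromosome 13, 0.935 for chromosome 3, 0.784 for chromosome 11, 0.871 for chromosome 6, 0.918 for H1, 0.983 for H2A, 1.01 for H2B, 1.08 for H3 and 1.03 for H4, with a median log2 ratio of 0.039 and 0 genes higher, while 1966 of 12186 promoters were lower and 17 higher. Within 300 bp the scale was set anew for that window. The ratio was then 1.24 for chromosome 13, 1.25 for chromosome 3, 1.11 for H2A, 1.46 for H3 and 1.12 for H4, with 3 genes higher and a median log2 ratio of 0.21. Within 500 bp, H2A had 1.12 and the median log2 ratio was 0.19, with 42 of 52 ratios above 1, and within 2 kb 10 genes were higher and 57 of 57 ratios lay above 1. With the GC trend removed, it was 1.15 for all members, 1.18 for chromosome 13, 1.15 for H2B, 1.20 for H3 and 1.14 for H4, with 2 genes higher and a median log2 ratio of 0.19. With the read level trend removed, it was 1.31 for all members, 1.41 for chromosome 13 and 1.45 for H3, with 21 genes higher. Over members with 90% or more unique words, it was 1.19 for all, 1.23 for chromosome 13 and 1.14 for H4, with 0 genes higher. The cause of these shifts was not tested. No shift of the 5′ ends, the 5′-most gene end as TSS, a minimum of 20 reads and reads without a mismatch left 7 to 8 members counted as higher and 0 as lower. Under these settings 0.649% to 0.838% of all tested promoters were higher and 4.68% to 5.29% lower. The share higher was 0.328% on total reads, 2.27% within 300 bp and 0.727% within 2 kb. It was 0.345% with the GC trend removed and 1.96% with the read level trend removed.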
